A study of Mus musculus with 8 samples.

Results

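Expression of 39 mouse genes of glycolysis and of the cellular response to low oxygen was followed in B16-F10 melanoma cells. The genes were chosen by symbol and all 39 had a line among the 46477 lines of the deposited expression table. They comprised 21 glycolytic genes, 15 other targets of the hypoxia response and 3 subunits of hypoxia-inducible factor (HIF). A mean of at least 1 FPKM (fragments per kilobase of transcript and mapped library size) over the libraries was reached by 32 of them, made up of 16 glycolytic genes, 14 other hypoxia targets and 2 HIF subunits, and these are described. The 7 genes under that level were Slc2a3, Hk1, Pfkm, Pfkfb3, Pfkfb4, Egln3 and Epas1, whose highest value in any library was 0.389, 1.33, 1.01, 0.364, 0.169, 0.294 and 0.280 FPKM, in that order.

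B16-F10, a transplantable mouse melanoma line, was plated for 24 hours on the extracellular matrix that smooth muscle cells (SMCs) had left behind after lysis. The SMCs, and not the melanoma cells, had received siRNA for 72 hours and then 72 hours in 1 of 2 media, TCM or SFM. TCM is read here as the B16-F10 tumor conditioned medium named in the series title, and SFM is not spelled out in the labels. With each medium there was 1 library after siKLF4-siFN (both siRNAs), 1 after siFN, 1 after siKLF4 and 1 after siNT, which makes 8 libraries without replicates. Every library therefore holds wild-type melanoma cells of the same line on a matrix deposited by SMCs that carried an siRNA, and the species and source of the SMCs are not stated. The knockdown itself took place in the lysed SMCs and cannot be checked in these libraries.

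Glycolysis splits glucose into pyruvate, and lactate dehydrogenase and lactate export let it run without mitochondrial respiration. Under low oxygen HIF-1, a dimer of an oxygen-labile alpha subunit and the stable partner ARNT, binds short hypoxia response elements and activates most glycolytic genes together with genes of mitophagy, angiogenesis and collagen hydroxylation. Hydroxylation of the alpha subunit by EGLN enzymes marks it for degradation when oxygen is present, so its activity is regulated largely at the protein level, which RNA does not show. Melanoma cells commonly run glycolysis at a high rate also when oxygen is available.

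The promoters of the genes were compared for the core of the hypoxia response element, ACGTG or GCGTG on either strand, in RefSeq windows (build GRCm38.p6) from 250 bases before to 50 bases after each start site. The table of windows held 30 of the 32 described genes and lacked Ndrg1 and Bnip3l. A core was present in 27 of these 30 genes, and the 3 without one were Eno2, Gpi1 and Tpi1. Counted by window, 33 of 43 (76.7%) held a core, against 67% of the 5428 windows of all tested genes and 43.8% of all 32851 windows in the table. No described gene had a window with TGATGNAA, the composite element of ATF4 and C/EBP, which occurred in 2.04% of the windows of tested genes and in 3.97% of all windows. ACGTG is also part of the E-box CACGTG, and a match of these letters is a description of the window and not evidence of binding. The 4 windows that follow belong to genes whose levels set the libraries apart in the comparisons reported here, P4ha2 and Eno2 with high values and Bnip3 and Kdm3a with low values on SFM matrix after siFN. Capitals mark the cores on the printed strand or their reverse complements, and each window runs 5′ to 3′ in the direction of transcription.
P4ha2 (chr11:54100674-54100973, plus strand): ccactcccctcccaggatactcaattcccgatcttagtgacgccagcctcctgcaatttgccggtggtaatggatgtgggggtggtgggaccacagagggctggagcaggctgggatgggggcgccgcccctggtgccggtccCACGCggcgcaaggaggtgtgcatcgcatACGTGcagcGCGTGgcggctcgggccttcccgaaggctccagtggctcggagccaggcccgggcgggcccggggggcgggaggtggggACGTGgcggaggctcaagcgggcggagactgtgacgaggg
Eno2 (chr6:124769624-124769923, minus strand): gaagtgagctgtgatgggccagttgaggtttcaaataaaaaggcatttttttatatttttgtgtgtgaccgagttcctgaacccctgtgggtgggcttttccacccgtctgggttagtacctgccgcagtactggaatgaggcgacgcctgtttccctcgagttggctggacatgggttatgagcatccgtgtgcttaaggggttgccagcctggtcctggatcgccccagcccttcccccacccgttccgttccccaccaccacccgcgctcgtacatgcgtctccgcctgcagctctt
Bnip3 (chr7:138909457-138909756, minus strand): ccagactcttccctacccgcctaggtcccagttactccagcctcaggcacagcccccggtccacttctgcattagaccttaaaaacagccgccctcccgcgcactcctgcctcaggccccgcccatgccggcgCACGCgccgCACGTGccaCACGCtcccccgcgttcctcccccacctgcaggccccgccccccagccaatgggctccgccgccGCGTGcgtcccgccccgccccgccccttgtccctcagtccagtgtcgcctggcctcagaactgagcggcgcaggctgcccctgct
Kdm3a (chr6:71632868-71633167, minus strand): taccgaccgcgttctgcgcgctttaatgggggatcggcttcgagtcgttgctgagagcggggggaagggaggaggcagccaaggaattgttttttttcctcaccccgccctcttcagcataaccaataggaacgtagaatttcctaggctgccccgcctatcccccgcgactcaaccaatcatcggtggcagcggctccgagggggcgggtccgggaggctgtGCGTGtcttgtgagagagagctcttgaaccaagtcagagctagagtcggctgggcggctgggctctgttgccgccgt

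P4ha2 and Bnip3 held 4 and 5 matches, with matches that overlap on opposite strands counted separately. Of the 3 Kdm3a start sites in the table only the one printed held a core, and the Eno2 window had none. Genes with high and with low values on SFM matrix after siFN both included genes with cores. A core was present in 67% of the windows of all tested genes, so the printed windows cannot link cores to either direction.

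Depth was estimated at between 11600000 and 23000000 reads per library, from the smallest steps between low FPKM values. Of these values 44.72% to 48.76% lay within 0.05 reads of a whole number, against 10% expected for a step fixed beforehand. Each depth was chosen as the one with the largest such share. At that approximate depth the counting error of a described gene in a single library was between 0.586% (Tpi1, highest library) and 15.97% (Ankrd37, lowest library). Of 10 melanocyte markers 9 reached a mean of 1 FPKM, with summed levels between 480.1 and 747 FPKM per library, lowest on SFM matrix after siFN, while Mitf averaged 0.531 FPKM. Of 12 smooth muscle markers 1 (Des) reached it and Acta2 and Rgs5 were listed at 0 in every library. None of 10 fibroblast and none of 8 endothelial markers reached it, and Cd68 alone did of 9 leukocyte markers. All 37 mitochondrially encoded lines were listed at 0 in every library, so that a 0 in this table need not mean a silent gene. The closest of the 28 library pairs were TCM siKLF4-siFN and TCM siFN, with a median absolute difference of 0.06 (log2 of FPKM + 1) over 6917 genes. No label says that any of the libraries, this pair included, came from separate cultures, and if the pair did not, the tests that count it as 2 libraries overstate the evidence. Fewer cells of one kind and less RNA per cell cannot be told apart in such bulk samples.

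Some genes have processed or retrotransposed copies elsewhere in the genome, and the submitters' rule for reads that fit several places is not given in the sources used here. Among the 32 described genes 8 had lines for near copies, meaning genes that share at least 200 stretches of 31 bases with them, and the copies filled 98 lines. For 6 of the 8 the copies carried more summed FPKM than the gene itself. Pgk1, phosphoglycerate kinase, averaged 22.2 FPKM, while its copies Pgk1-rs7 and Gm5537 summed to 2292 FPKM. Gapdh averaged 106 FPKM beside 1989 FPKM over 87 copies, and Eno1, the ubiquitous enolase, averaged 174 FPKM beside 2052 FPKM in Gm4735 and Eno1b. For Gpi1, Pgam1 and Bnip3 the gene averaged 20.5, 160 and 19.1 FPKM, and the copies 188, 424 and 62.5 FPKM, in that order. The level of each of these 6 genes is therefore uncertain, and sums over copies mix features of different length. Aldoa and Ldha had copies with lower levels than their own, and the other 24 described genes had none by this measure. For the 6 genes whose copies carried more, the sum of gene and copies was lowest on SFM matrix after siFN for Gpi1, Gapdh, Pgk1, Eno1 and Bnip3, whereas for Pgam1 it was lowest on TCM matrix after siKLF4-siFN. Sums can hide copies that differ. On SFM matrix after siNT Pgk1 and its copy Pgk1-rs7 were highest (25.6 and 2106 FPKM), while its copy Gm5537 was lowest there (179 FPKM).

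**Figure D1:**
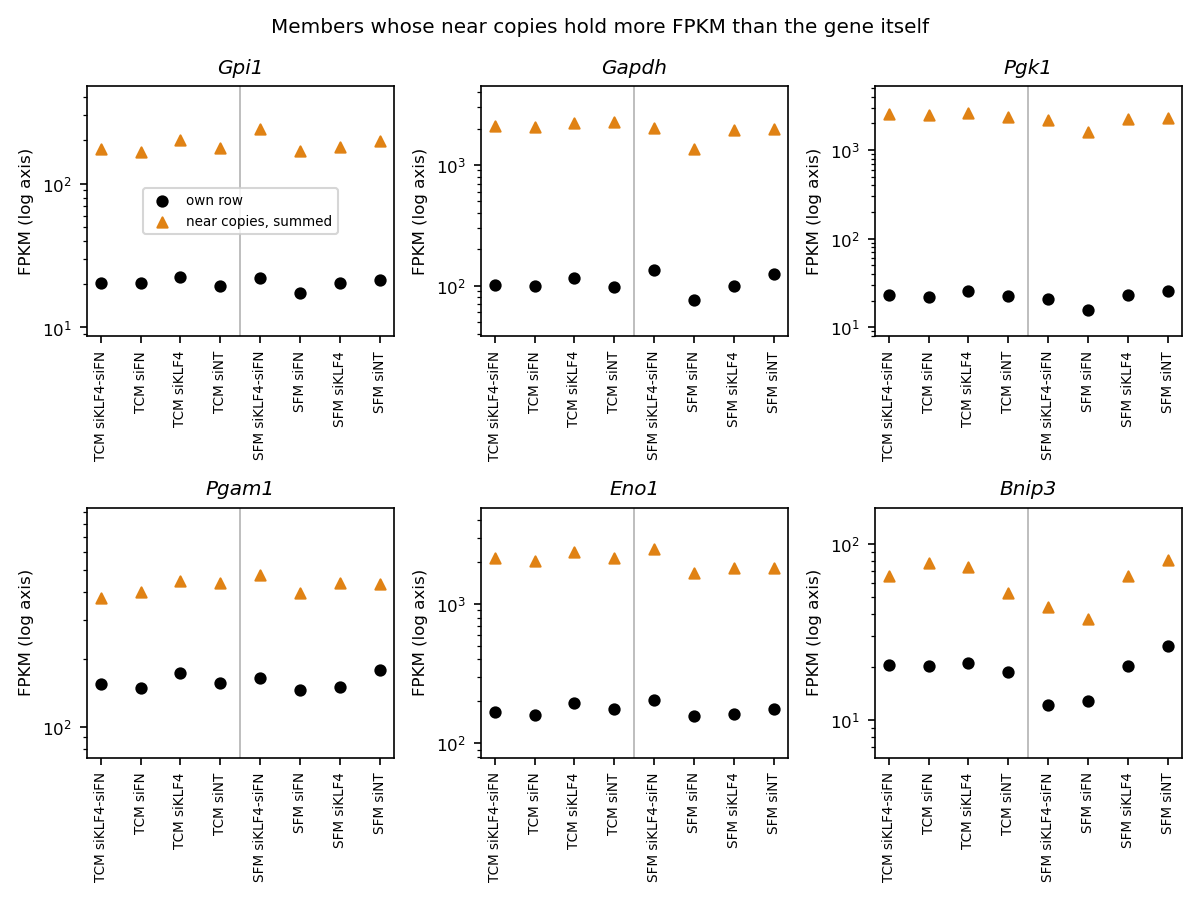
FPKM on a log axis in each of the 8 libraries for the 6 genes whose near copies hold more FPKM than the gene (circles, the gene's own line) and for the sum of their copies (triangles). The gap is widest for Pgk1, with means of 22.2 FPKM for the gene and 2292 FPKM for the copies.

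By the level of their own lines, the most abundant glycolytic genes were Tpi1 (triose phosphate isomerase, mean 450 FPKM), Aldoa (aldolase A, mean 436 FPKM) and Pkm (pyruvate kinase, mean 219 FPKM). These FPKM levels are per length of transcript and can be set beside each other, within the limit for genes with near copies. Among the other hypoxia targets Ddit4, an inhibitor of mTORC1 signalling, was highest with a mean of 56.9 FPKM, and Mxi1, a MYC antagonist, was lowest with 2.11 FPKM. The lowest value lay on SFM matrix after siFN for 12 of the 16 glycolytic genes and for 6 of the 14 other targets. The highest value lay on SFM matrix after siKLF4-siFN for 8 of the 16 glycolytic genes and on TCM matrix after siKLF4 for 6 of them. Such counts were not made over all genes tested, so they cannot be read as particular to glycolytic genes. Both SFM libraries with siFN lay below all 6 others for 16.4% of the 6917 genes tested and above them for 16.2%. Relative to its own mean over the 8 libraries, the average glycolytic gene stood at 0.18 after siKLF4-siFN and at -0.28 after siFN on SFM matrix (log2 of FPKM + 1).

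**Figure D2:**
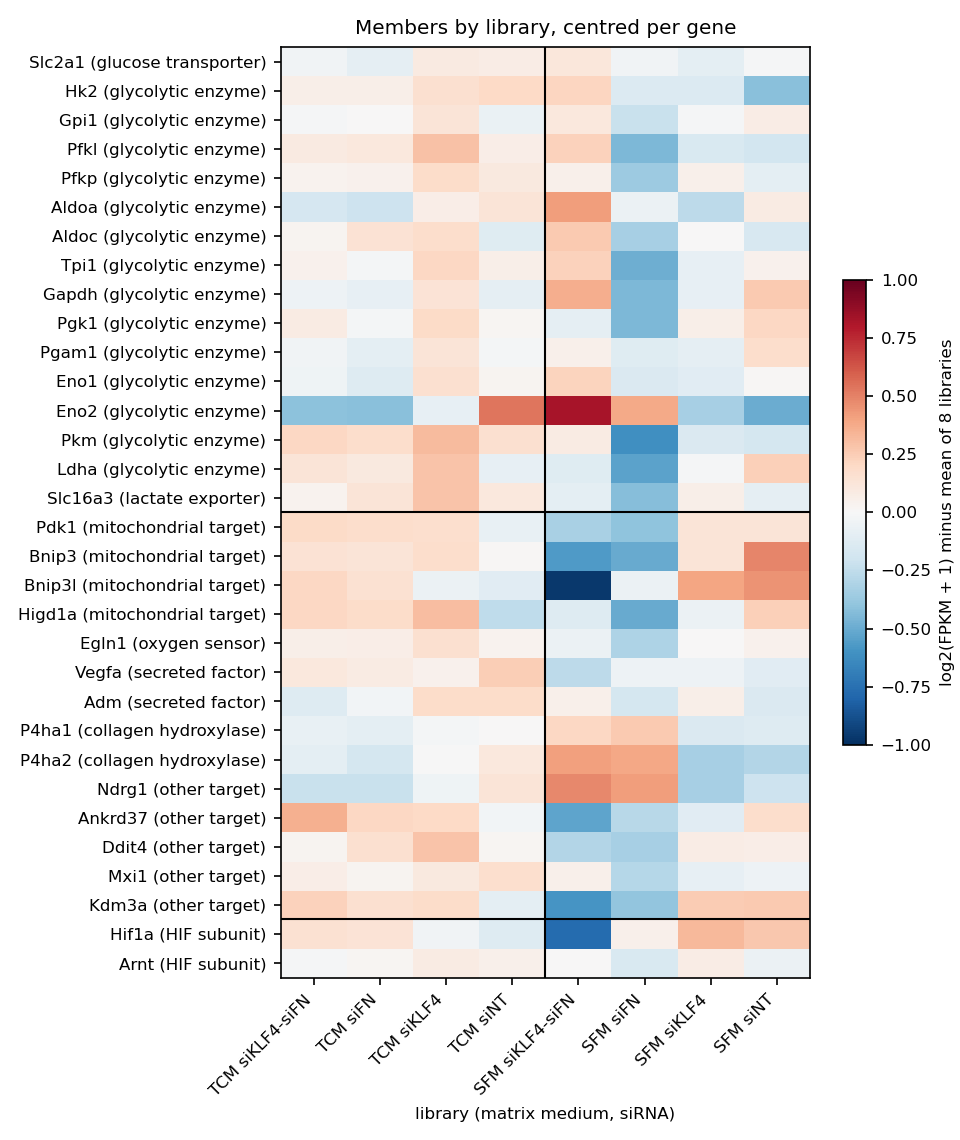
Each described gene (down) in each library (across), coloured by log2(FPKM + 1) minus the gene's mean over the 8 libraries. Most glycolytic genes are lowest on SFM matrix after siFN (12 of 16), while Ndrg1, P4ha1 and P4ha2 are highest in both SFM libraries with siFN. The count of lowest values was not made over all genes tested.

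Glucose enters the cell through GLUT transporters and is trapped by hexokinase. On TCM matrix Slc2a1 had an FPKM of 6.60 with siKLF4-siFN, 6.30 with siFN, 7.27 with siKLF4 and 7.21 with siNT. On SFM matrix Slc2a1 had an FPKM of 7.44 with siKLF4-siFN, 6.59 with siFN, 6.26 with siKLF4 and 6.73 with siNT. Slc2a1, which encodes GLUT1, varied little, and its libraries did not separate by medium or siRNA. On TCM matrix Hk2 had an FPKM of 11.01 with siKLF4-siFN, 11.04 with siFN, 11.9 with siKLF4 and 12.3 with siNT. On SFM matrix Hk2 had an FPKM of 12.4 with siKLF4-siFN, 9.49 with siFN, 9.49 with siKLF4 and 7.62 with siNT. Hk2, the hexokinase that HIF induces, was lowest on SFM matrix after siNT and highest on SFM matrix after siKLF4-siFN. The TCM minus SFM difference of Hk2 without siFN was 0.46 ± 0.16 (SE; adjusted p = 0.541) in limma's test with Benjamini-Hochberg adjustment, which does not pass.

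Of the enzymes that follow hexokinase, Eno2, Pkm, Ldha and Gapdh had the widest range over libraries on the log2 scale. On TCM matrix Eno2 had an FPKM of 5.87 with siKLF4-siFN, 5.85 with siFN, 7.61 with siKLF4 and 12.2 with siNT. On SFM matrix Eno2 had an FPKM of 15.2 with siKLF4-siFN, 10.85 with siFN, 6.25 with siKLF4 and 5.47 with siNT. Eno2, the gamma enolase typical of neurons and neuroendocrine cells, was high on TCM matrix after siNT and on SFM matrix after siKLF4-siFN and siFN, and low in the other 5 libraries. Its libraries with and without siFN did not overlap on SFM matrix, where siFN libraries were higher, and did not overlap on TCM matrix either, where siFN libraries were lower. Such non-overlap within a medium was not counted over all genes tested, so it cannot be read as particular to Eno2. On TCM matrix Pkm had an FPKM of 248 with siKLF4-siFN, 242 with siFN, 267 with siKLF4 and 240.2 with siNT. On SFM matrix Pkm had an FPKM of 228 with siKLF4-siFN, 140.3 with siFN, 194 with siKLF4 and 189.9 with siNT. Pkm, which encodes pyruvate kinase M, was lowest on SFM matrix after siFN, and every TCM library lay above every SFM library. Its media difference in limma's model of media, siKLF4 and siFN was 0.43 ± 0.15 (SE; adjusted p = 0.657), which does not pass. Such separation by medium was also seen for Vegfa. It was not counted over all genes tested, so it cannot be read as particular to these genes.

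Gapdh, the glycolytic dehydrogenase that often serves as a reference gene, differed by a factor of 1.77 between its highest and lowest library. On TCM matrix Gapdh had an FPKM of 101 with siKLF4-siFN, 98.5 with siFN, 115 with siKLF4 and 98.1 with siNT. On SFM matrix Gapdh had an FPKM of 135 with siKLF4-siFN, 76.1 with siFN, 98.5 with siKLF4 and 125 with siNT. The Gapdh extremes were the SFM libraries with siKLF4-siFN and with siFN, which share a medium and the siFN siRNA. With its copies added, Gapdh was again lowest on SFM matrix after siFN (1442 FPKM) but highest on TCM matrix after siKLF4 (2359 FPKM), with 2146 FPKM on SFM matrix after siKLF4-siFN. On TCM matrix Ldha had an FPKM of 159 with siKLF4-siFN, 156 with siFN, 178 with siKLF4 and 138 with siNT. On SFM matrix Ldha had an FPKM of 134 with siKLF4-siFN, 100.2 with siFN, 145 with siKLF4 and 173 with siNT. Ldha, the lactate dehydrogenase subunit that favours lactate formation, was lower in both SFM libraries with siFN than in the other 6 libraries. On TCM matrix Slc16a3 had an FPKM of 7.75 with siKLF4-siFN, 8.34 with siFN, 9.39 with siKLF4 and 8.16 with siNT. On SFM matrix Slc16a3 had an FPKM of 6.96 with siKLF4-siFN, 5.35 with siFN, 7.88 with siKLF4 and 7.01 with siNT. Slc16a3, the lactate exporter MCT4, had its lowest values in the same pair of libraries, although SFM siKLF4-siFN and SFM siNT lay close together. No glycolytic gene other than Eno2 passed limma's test in any comparison.

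In the mitochondrial group of hypoxia targets, Pdk1 keeps pyruvate from respiration, and Bnip3 and Bnip3l act in mitophagy. On TCM matrix Pdk1 had an FPKM of 6.42 with siKLF4-siFN, 6.35 with siFN, 6.32 with siKLF4 and 5.19 with siNT. On SFM matrix Pdk1 had an FPKM of 4.20 with siKLF4-siFN, 3.94 with siFN, 6.13 with siKLF4 and 6.13 with siNT. Pdk1, a kinase that shuts the pyruvate dehydrogenase complex, was lower in both SFM libraries with siFN than in the other 6. On TCM matrix Bnip3 had an FPKM of 20.7 with siKLF4-siFN, 20.4 with siFN, 21.2 with siKLF4 and 18.7 with siNT. On SFM matrix Bnip3 had an FPKM of 12.2 with siKLF4-siFN, 12.8 with siFN, 20.4 with siKLF4 and 26.5 with siNT. Bnip3, a mitophagy receptor, was also low there, with no overlap between both SFM libraries with siFN and the rest. Its near copy Gm16439 had 66.2, 78.0, 74.4 and 53.1 FPKM on TCM matrix after siKLF4-siFN, siFN, siKLF4 and siNT and 43.8, 37.7, 65.8 and 80.8 FPKM on SFM matrix after the same siRNAs.

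On TCM matrix Bnip3l had an FPKM of 5.198 with siKLF4-siFN, 4.97 with siFN, 4.16 with siKLF4 and 3.98 with siNT. On SFM matrix Bnip3l had an FPKM of 1.75 with siKLF4-siFN, 4.16 with siFN, 6.09 with siKLF4 and 6.36 with siNT. Bnip3l, the related receptor NIX, was low on SFM matrix after siKLF4-siFN alone, while SFM siFN lay within the range of the TCM libraries. On TCM matrix Higd1a had an FPKM of 8.11 with siKLF4-siFN, 8.001 with siFN, 8.77 with siKLF4 and 5.63 with siNT. On SFM matrix Higd1a had an FPKM of 6.24 with siKLF4-siFN, 4.58 with siFN, 6.59 with siKLF4 and 8.35 with siNT. Higd1a, a small protein of the inner mitochondrial membrane, was lowest on SFM matrix after siFN, and TCM siNT lay below SFM siKLF4-siFN. Egln1, the oxygen-sensing prolyl hydroxylase PHD2, is itself induced by HIF. On TCM matrix Egln1 had an FPKM of 5.68 with siKLF4-siFN, 5.70 with siFN, 6.16 with siKLF4 and 5.58 with siNT. On SFM matrix Egln1 had an FPKM of 5.14 with siKLF4-siFN, 4.17 with siFN, 5.41 with siKLF4 and 5.58 with siNT. Egln1 was lowest in both SFM libraries with siFN, over a narrow range.

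The secreted factors among the targets varied little. On TCM matrix Vegfa had an FPKM of 12.5 with siKLF4-siFN, 12.3 with siFN, 11.9 with siKLF4 and 13.9 with siNT. On SFM matrix Vegfa had an FPKM of 9.42 with siKLF4-siFN, 11.1 with siFN, 11.1 with siKLF4 and 10.6 with siNT. Vegfa, the angiogenic growth factor, was lowest on SFM matrix after siKLF4-siFN and highest on TCM matrix after siNT. As for Pkm, every TCM library of Vegfa lay above every SFM library. Its media difference was 0.24 ± 0.11 (SE; adjusted p = 0.749) in limma, which does not pass. On TCM matrix Adm had an FPKM of 5.64 with siKLF4-siFN, 6.13 with siFN, 7.22 with siKLF4 and 7.26 with siNT. On SFM matrix Adm had an FPKM of 6.51 with siKLF4-siFN, 5.41 with siFN, 6.56 with siKLF4 and 5.58 with siNT. Adm, the vasoactive peptide adrenomedullin, overlapped between media and between siRNAs. The collagen prolyl 4-hydroxylase subunits P4ha1 and P4ha2, which stabilise the collagen triple helix, had their high values where Pdk1 and Bnip3 had their low ones.

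On TCM matrix P4ha1 had an FPKM of 3.77 with siKLF4-siFN, 3.71 with siFN, 3.96 with siKLF4 and 4.04 with siNT. On SFM matrix P4ha1 had an FPKM of 4.80 with siKLF4-siFN, 5.04 with siFN, 3.55 with siKLF4 and 3.59 with siNT. P4ha1 was higher in both SFM libraries with siFN than in the other 6. On TCM matrix P4ha2 had an FPKM of 3.09 with siKLF4-siFN, 2.87 with siFN, 3.36 with siKLF4 and 3.71 with siNT. On SFM matrix P4ha2 had an FPKM of 4.80 with siKLF4-siFN, 4.71 with siFN, 2.48 with siKLF4 and 2.58 with siNT. P4ha2 was likewise highest in that pair, with TCM siNT next. On TCM matrix Ndrg1 had an FPKM of 4.99 with siKLF4-siFN, 4.99 with siFN, 5.79 with siKLF4 and 6.62 with siNT. On SFM matrix Ndrg1 had an FPKM of 8.73 with siKLF4-siFN, 8.30 with siFN, 4.54 with siKLF4 and 5.03 with siNT. Ndrg1, a stress and hypoxia responsive gene linked to differentiation and growth restraint, had the same 3 libraries at the top.

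On TCM matrix Kdm3a had an FPKM of 7.05 with siKLF4-siFN, 6.66 with siFN, 6.77 with siKLF4 and 5.396 with siNT. On SFM matrix Kdm3a had an FPKM of 3.56 with siKLF4-siFN, 4.20 with siFN, 7.15 with siKLF4 and 7.196 with siNT. Kdm3a, a histone H3 lysine 9 demethylase, was lowest in both SFM libraries with siFN, with TCM siNT next. On TCM matrix Ankrd37 had an FPKM of 4.47 with siKLF4-siFN, 3.92 with siFN, 3.90 with siKLF4 and 3.20 with siNT. On SFM matrix Ankrd37 had an FPKM of 1.97 with siKLF4-siFN, 2.53 with siFN, 2.95 with siKLF4 and 3.81 with siNT. Ankrd37, a small ankyrin repeat protein, was lowest in the same pair. It overlaps Ufsp2 (mean 1.81 FPKM) on the opposite strand, so that without a stated strand rule reads of both genes cannot be told apart. The same limit holds for Pfkp with Pitrm1 (2.61 FPKM), Mxi1 with Gm10197 (1.38 FPKM), Tpi1 with Spsb2 (7.66 FPKM) and Gpi1 with Gm26762 (1.34 FPKM). Pkm and Hif1a overlap Gm49759 and Gm49321 on the same strand, for which no level was available. On TCM matrix Ddit4 had an FPKM of 57.4 with siKLF4-siFN, 63.1 with siFN, 68.9 with siKLF4 and 57.1 with siNT. On SFM matrix Ddit4 had an FPKM of 45.8 with siKLF4-siFN, 44.5 with siFN, 59.3 with siKLF4 and 59.2 with siNT. Ddit4 was lowest in both SFM libraries with siFN and highest on TCM matrix after siKLF4. On TCM matrix Mxi1 had an FPKM of 2.24 with siKLF4-siFN, 2.15 with siFN, 2.30 with siKLF4 and 2.48 with siNT. On SFM matrix Mxi1 had an FPKM of 2.21 with siKLF4-siFN, 1.54 with siFN, 1.92 with siKLF4 and 1.99 with siNT. Mxi1 was lowest on SFM matrix after siFN and lay within the TCM range on SFM matrix after siKLF4-siFN.

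Of the HIF subunits, Hif1a encodes the oxygen-labile HIF-1 alpha and Arnt its constitutive partner. On TCM matrix Hif1a had an FPKM of 4.42 with siKLF4-siFN, 4.37 with siFN, 3.76 with siKLF4 and 3.47 with siNT. On SFM matrix Hif1a had an FPKM of 1.86 with siKLF4-siFN, 4.05 with siFN, 5.11 with siKLF4 and 4.88 with siNT. Hif1a RNA was low on SFM matrix after siKLF4-siFN and, as for Bnip3l, not on SFM matrix after siFN. On TCM matrix Arnt had an FPKM of 1.04 with siKLF4-siFN, 1.08 with siFN, 1.17 with siKLF4 and 1.12 with siNT. On SFM matrix Arnt had an FPKM of 1.07 with siKLF4-siFN, 0.849 with siFN, 1.16 with siKLF4 and 0.972 with siNT. Arnt was lowest on SFM matrix after siFN, and the other 7 libraries lay close together.

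Among the 32 described genes, 3 (9.38%) were higher in both SFM libraries with siFN than in all 6 other libraries, namely Ndrg1, P4ha1 and P4ha2, against 16.2% of the 6917 genes tested. In the opposite direction 9 genes (28.1%) were lower in both of these libraries than in all others, against 16.4% of the genes tested. The 9 genes were Ankrd37, Bnip3, Ddit4, Egln1, Kdm3a, Ldha, Pdk1, Pgk1 and Slc16a3, of which 3 are glycolytic.

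**Figure D3:**
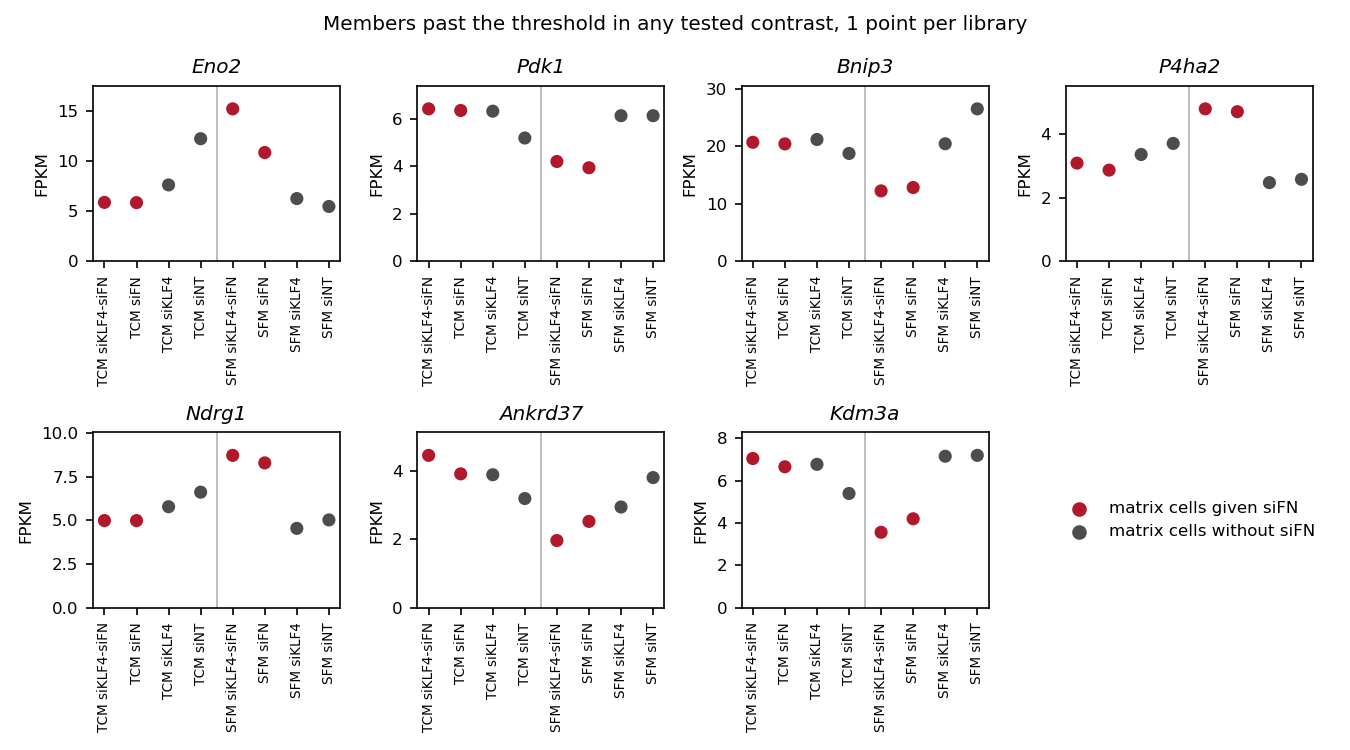
FPKM in each library (1 point each, red where the SMCs had received siFN) for the 7 genes that passed the limma test in at least 1 comparison of the media by siFN model. Eno2, P4ha2 and Ndrg1 are high and Pdk1, Bnip3, Kdm3a and Ankrd37 are low on SFM matrix with siFN.

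Whether the effect of the medium differed between matrix made with and without siFN was tested in limma on log2(FPKM + 1), with media, siKLF4, siFN and the media by siFN term in 1 model of all 8 libraries. With no replicates, the p-values rest on libraries that share a factor level, and they measure only the spread between these libraries. Eno2, P4ha2 and Ndrg1 passed, all with a negative term, which means that TCM minus SFM was lower with siFN than without it. The term was -1.65 ± 0.35 (SE; adjusted p = 0.0446) for Eno2, -0.98 ± 0.18 (SE; adjusted p = 0.0426) for Ndrg1 and -0.89 ± 0.17 (SE; adjusted p = 0.0422) for P4ha2 in limma with Benjamini-Hochberg adjustment over 6917 genes. These 3 of 32 genes (9.38%) compare with 496 of all genes tested (7.17%), a share of similar size, and 10 of the 32 (31.2%) had an unadjusted p under 0.05, against 33.6% of all genes. Genes with positive terms did not pass, among them Kdm3a with 0.90 ± 0.21 (SE; adjusted p = 0.0532), Bnip3 with 0.89 ± 0.24 (SE; adjusted p = 0.0672), Bnip3l with 1.20 ± 0.35 (SE; adjusted p = 0.0767), Pdk1 with 0.63 ± 0.18 (SE; adjusted p = 0.0772) and Hif1a with 0.88 ± 0.33 (SE; adjusted p = 0.123). The 3 calls were lost when any of TCM siKLF4-siFN, TCM siFN, TCM siNT, SFM siKLF4-siFN, SFM siKLF4 or SFM siNT was left out. Over all genes these fits called 0 as well, except 51 genes without TCM siNT. Without SFM siFN 7 of the 32 (21.9%) passed, a lower share than the 29.9% of all genes. The 3 calls were also lost with TCM siKLF4-siFN and TCM siFN, the closest pair, averaged to 1 library, and with a pseudocount of 0.1. With that pseudocount 0 of all 6917 genes passed.

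The median term over the 16 glycolytic genes was 0.00303, with 8 above 0 and 8 below, and over the 14 other hypoxia targets it was 0.25, with 9 above 0 and 5 below. Over all genes tested it was -0.06, with 45.6% above 0. The glycolytic median was -0.29 without SFM siFN, -0.24 without SFM siNT and 0.20 without SFM siKLF4-siFN, so its sign rests on single libraries, while the median of the other targets ranged from 0.16 to 0.33 as each library was left out. Among the other targets the terms ran from -0.98 for Ndrg1 to 1.20 for Bnip3l, so that their median describes neither end.

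**Figure D4:**
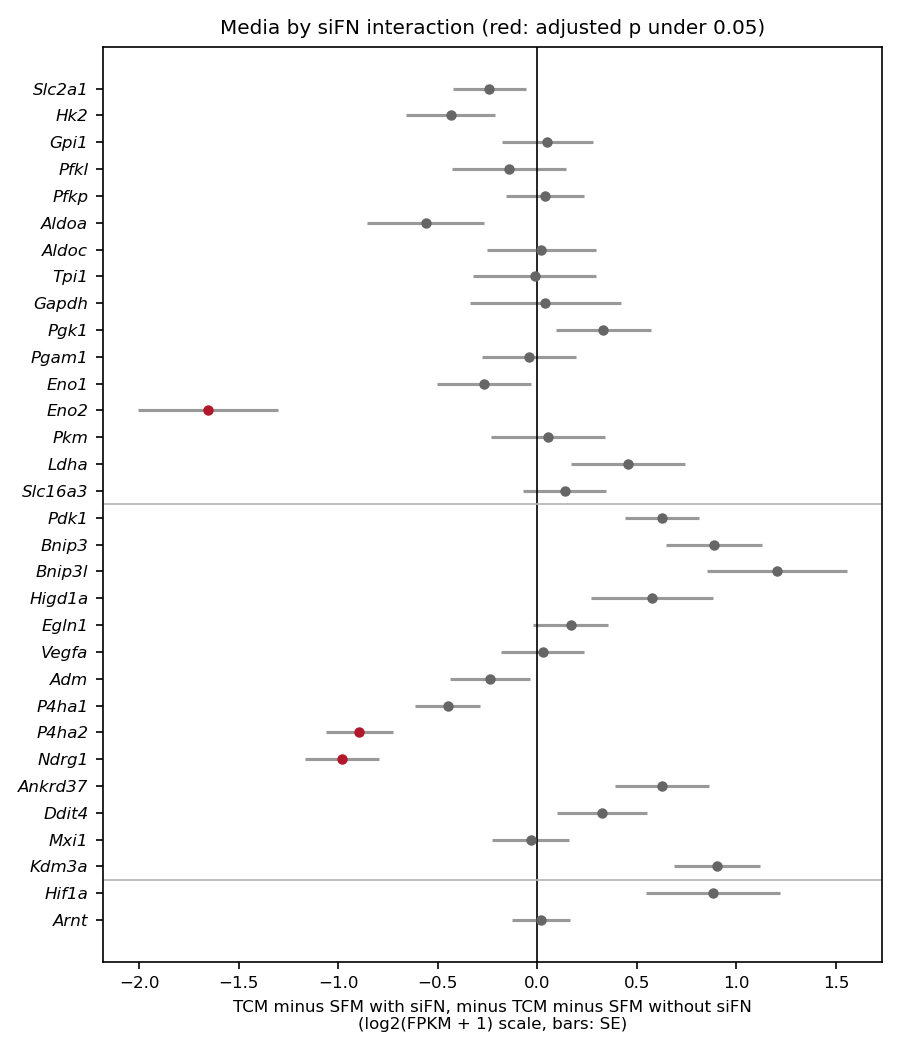
The media by siFN term of each described gene (points, log2 of FPKM + 1, bars are the SE), with genes past an adjusted p of 0.05 in red and lines between the glycolytic genes, other targets and HIF subunits. Eno2 (-1.65), Ndrg1 (-0.98) and P4ha2 (-0.89) passed, and Bnip3l had the highest term (1.20).

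On SFM matrix alone, siFN minus no siFN was positive and past the threshold for P4ha2, 0.71 ± 0.12 (SE; adjusted p = 0.0340), and for Ndrg1, 0.72 ± 0.13 (SE; adjusted p = 0.0373), in limma. It was negative and past the threshold for Bnip3, -0.84 ± 0.17 (SE; adjusted p = 0.0422), and for Kdm3a, -0.75 ± 0.15 (SE; adjusted p = 0.0426), in limma. These 4 of 32 genes (12.5%) stand beside 6.92% of all genes tested, and none of the 4 is glycolytic. Eno2 had a larger difference, 1.02 ± 0.25 (SE; adjusted p = 0.0567), which did not pass in limma. Of the 14 other targets 11 had a negative difference (median -0.29) and of the 16 glycolytic genes 9 did (median -0.08), against a median of 0.00651 over all genes tested. None of the 32 passed when any of TCM siKLF4-siFN, TCM siFN, SFM siKLF4-siFN, SFM siKLF4 or SFM siNT was left out, or with TCM siKLF4-siFN and TCM siFN averaged, and over all genes at most 70 did in these fits. Without SFM siFN 7 of the 32 (21.9%) passed, a lower share than the 26.5% of all genes. Bnip3 no longer passed when its near copy was added, with an adjusted p of 0.0581 in limma.

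On TCM matrix, siFN minus no siFN gave no call among the 32 genes and none among all 6917 (0%) in limma, with 1 and 391 genes at an unadjusted p under 0.05. The gene at that level was Eno2, at -0.64 ± 0.25 (SE; adjusted p = 0.738) in limma. P4ha2 had -0.19 ± 0.12 (SE; adjusted p = 0.738) and Bnip3 had 0.04 ± 0.17 (SE; adjusted p = 0.948) in limma on TCM matrix. That siFN passed on SFM and not on TCM matrix does not by itself separate the media, and the media by siFN term was past the threshold for P4ha2 and Ndrg1 and not for Bnip3 and Kdm3a.

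With siFN, TCM minus SFM passed for 7 of the 32 genes (21.9%), against 16.9% of all genes tested in limma. Eno2, P4ha2 and Ndrg1 were lower on TCM than on SFM matrix, with differences of -1.01 ± 0.25 (SE; adjusted p = 0.0416), -0.53 ± 0.12 (SE; adjusted p = 0.0364) and -0.67 ± 0.13 (SE; adjusted p = 0.0310) in limma, in that order. Pdk1, Bnip3, Kdm3a and Ankrd37 were higher on TCM matrix, with differences of 0.54 ± 0.13 (SE; adjusted p = 0.0408), 0.67 ± 0.17 (SE; adjusted p = 0.0452), 0.69 ± 0.15 (SE; adjusted p = 0.0360) and 0.68 ± 0.17 (SE; adjusted p = 0.0421) in limma, in that order. This comparison shares its SFM libraries with the siFN comparison on SFM matrix, so the overlap of their genes is no separate result. None of the 32 passed when any of TCM siKLF4-siFN, TCM siFN, SFM siKLF4-siFN, SFM siKLF4 or SFM siNT was left out, or with TCM siKLF4-siFN and TCM siFN averaged. Over all genes 501 passed without SFM siKLF4, 495 without SFM siNT and 0 in the other fits of that group. Leaving out TCM siKLF4 or TCM siNT gave 5 of the 32 (15.6%) each, against 11.6% of all genes in each fit. Without SFM siFN 9 of the 32 (28.1%) passed, a lower share than the 32.4% of all genes. Without siFN, TCM minus SFM passed for none of the 32 genes and 0% of all genes in limma, with 4 and 627 genes at an unadjusted p under 0.05.

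The same libraries stood apart in other gene lists. Over 17 measured genes of mitosis, the mean relative to each gene's own average was -1.27 and -1.24 on SFM matrix after siKLF4-siFN and siFN, -0.60 after siNT on TCM matrix, and 0.57 to 0.66 elsewhere (log2 of FPKM + 1). Over 29 measured genes of amino acid and endoplasmic reticulum stress it was 0.33, 0.22 and 0.23 in those 3 libraries and between -0.21 and -0.03 in the other 5. The median media by siFN term was 2.37 for the mitosis genes and -0.76 for the stress genes. Their part in the values of the glycolytic and hypoxia genes was not tested.

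The additive model of media, siKLF4 and siFN gave 0 of 32 genes and 0% of all genes past the threshold for each of the 3 factors in limma. At an unadjusted p under 0.05 there were 464 genes for media, of which 2 were among the 32, and 84 for siKLF4 and 84 for siFN, of which none was. Terms for siKLF4 with media and for siKLF4 with siFN likewise gave 0 of 32 and 0% in limma, with 78 and 40 genes at an unadjusted p under 0.05 and none among the 32. The siKLF4 difference was above 0 for 16 of the 16 glycolytic genes, with a median of 0.14, and for 7 of the 14 other targets, with a median of 0.01, while 52.5% of all genes were above 0. After median-of-ratios scaling it was above 0 for 15 of the 16 glycolytic genes and for 48.2% of all genes. No single glycolytic gene passed, so this is a count of signs over genes of 1 pathway in the same libraries and not a tested change.

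The pairs of single libraries show where the glycolytic signs came from, without any replicate check. SFM siKLF4-siFN minus SFM siFN was above 0 for all 16 glycolytic genes, with a median of 0.42 against 0.06 over all genes, also after median-of-ratios scaling, where the median was 0.35. The same pair split the other targets, with 8 of 14 above 0 as deposited and 5 of 14 after scaling. SFM siKLF4 minus SFM siNT was above 0 for 7 of the 16 glycolytic genes, TCM siKLF4 minus TCM siNT for 13, and TCM siKLF4-siFN minus TCM siFN for 10, with medians of -0.09, 0.15 and 0.03. The medians over all genes were -0.03, 0.04 and 0.004, in the same order. Among the 32 genes none differed by 1 or more in these 4 pairs, where 2.99%, 0.723%, 1.78% and 0.289% of all genes did, in the order given.

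**Figure D5:**
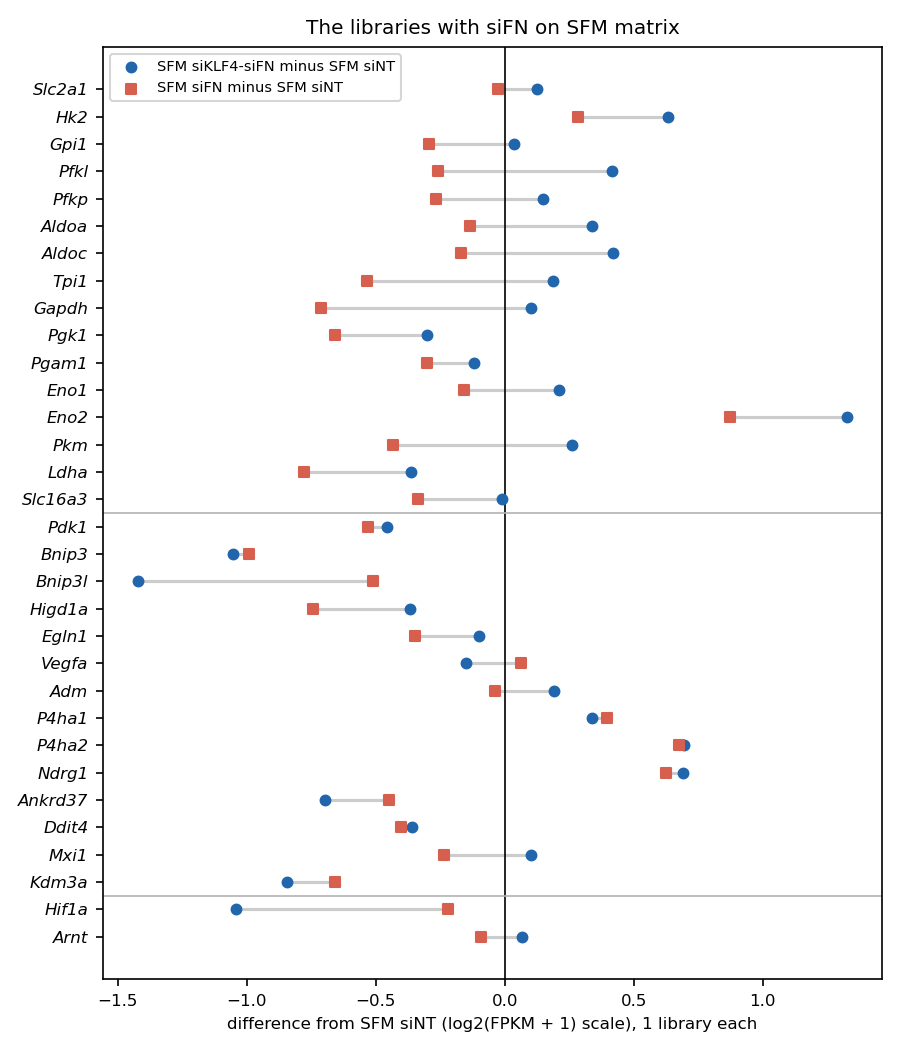
Differences of SFM siKLF4-siFN (circles) and SFM siFN (squares) from SFM siNT for each described gene, 1 library each, on the log2(FPKM + 1) scale. The circle lies to the right of the square for all 16 glycolytic genes and for 8 of the 14 other targets.

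Between media, TCM siKLF4 minus SFM siKLF4 was above 0 for all 16 glycolytic genes, with a median of 0.24 as deposited, 0.16 after median-of-ratios scaling, and 0.08 over all genes as deposited. TCM siFN minus SFM siFN was above 0 for 13 of the 16, with a median of 0.39, whereas TCM siKLF4-siFN minus SFM siKLF4-siFN was above 0 for 4, with a median of -0.15. After scaling these counts were 13 and 5, and the medians over all genes as deposited were 0.02 and -0.06. The other targets were above 0 in 11 of 14 and in 10 of 14 genes in these pairs, with medians of 0.34 and 0.32. TCM siNT minus SFM siNT was above 0 for 11 of the 16 glycolytic genes, with a median of 0.04, and for 6 of the 14 other targets, with a median of -0.03. The median over all genes was -0.01 in that pair. A difference of 1 or more was seen for Eno2 (1.03) in the siNT pair, where 2.43% of all genes reached it. In the siKLF4-siFN pair it was seen for Eno2 (-1.24) and Bnip3l (1.17), where 10.2% of all genes reached it. None of the 32 genes reached it in the siFN and siKLF4 pairs, where 5.05% and 1.32% of all genes did.

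Against SFM siNT, SFM siFN was above 0 for 2 of the 16 glycolytic genes, with a median of -0.28, and SFM siKLF4-siFN was above 0 for 12, with a median of 0.17. After scaling these counts were 3 and 12, and the medians over all genes as deposited were -0.03 and 0.02. The other targets were above 0 for 4 and for 5 of 14 genes, with medians of -0.38 and -0.26. SFM siKLF4-siFN minus SFM siNT reached 1 in size for Eno2 (1.33), Bnip3 (-1.06), Bnip3l (-1.42) and Hif1a (-1.04), where 8.62% of all genes did, and SFM siFN minus SFM siNT reached it for none of the 32, where 3.66% did. Against TCM siNT, TCM siFN and TCM siKLF4-siFN were each above 0 for 7 of the 16 glycolytic genes, with medians of -0.04 and -0.02, and after scaling for 7 and 9. Over all genes both medians were -0.01 as deposited. No gene of the 32 reached 1 in these TCM pairs, where 1.86% and 2.04% of all genes did.

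Further genes of the same pathways were read from lists of 42 glycolytic and 44 hypoxia-related genes that are not among the 39, of which 17 and 23 reached a mean of 1 FPKM. The media by siFN term passed for 2 of the 17 and 3 of the 23 genes, beside the 7.17% of all genes tested. On TCM matrix Slc16a1 had an FPKM of 4.66 with siKLF4-siFN, 4.73 with siFN, 5.10 with siKLF4 and 6.59 with siNT. On SFM matrix Slc16a1 had an FPKM of 7.06 with siKLF4-siFN, 8.99 with siFN, 4.44 with siKLF4 and 4.93 with siNT. Slc16a1, the monocarboxylate transporter MCT1, had a term of -0.92 ± 0.19 (SE; adjusted p = 0.0446) in limma and was highest on SFM matrix after siFN, where the exporter Slc16a3 was lowest. Adpgk, an ADP-dependent glucokinase, had a term of -0.71 ± 0.16 (SE; adjusted p = 0.0482) in limma.

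On TCM matrix Hmox1 had an FPKM of 92.7 with siKLF4-siFN, 93.8 with siFN, 111 with siKLF4 and 165 with siNT. On SFM matrix Hmox1 had an FPKM of 245 with siKLF4-siFN, 253 with siFN, 93.4 with siKLF4 and 113 with siNT. Hmox1, the heme oxygenase that responds to oxidative stress, was highest in both SFM libraries with siFN, and its term was -1.80 ± 0.26 (SE; adjusted p = 0.0375) in limma. Hilpda, a lipid droplet protein, had a term of -1.36 ± 0.30 (SE; adjusted p = 0.0480) in limma. On TCM matrix Plod2 had an FPKM of 3.21 with siKLF4-siFN, 3.13 with siFN, 2.32 with siKLF4 and 1.72 with siNT. On SFM matrix Plod2 had an FPKM of 0.807 with siKLF4-siFN, 1.58 with siFN, 3.40 with siKLF4 and 3.04 with siNT. Plod2, a collagen lysyl hydroxylase, was low in both SFM libraries with siFN, opposite to the prolyl hydroxylase gene P4ha2, with a term of 1.44 ± 0.28 (SE; adjusted p = 0.0429) in limma. On SFM matrix, siFN minus no siFN was past the threshold for Hmox1 with 1.27 ± 0.18 (SE; adjusted p = 0.0331), Slc16a1 with 0.66 ± 0.14 (SE; adjusted p = 0.0435) and Adpgk with 0.51 ± 0.11 (SE; adjusted p = 0.0468), which rose, in limma. Plod2 with -0.96 ± 0.19 (SE; adjusted p = 0.0426) and Anxa2, a membrane-binding annexin, with -0.83 ± 0.18 (SE; adjusted p = 0.0456) fell in limma. The calls for siFN on SFM matrix were 2 of the 17 glycolytic and 3 of the 23 hypoxia-related genes, beside 6.92% of all genes tested. With siFN, Hmox1, Hilpda, Slc16a1 and Adpgk were lower on TCM than on SFM matrix, and Plod2, Anxa2 and Bhlhe41, a transcriptional repressor of the circadian and hypoxia pathways, were higher. The calls in this comparison were 2 of the 17 and 5 of the 23 genes, beside 16.9% of all genes tested. The TCM minus SFM difference with siFN was -1.41 ± 0.18 (SE; adjusted p = 0.0243) for Hmox1 and 0.74 ± 0.15 (SE; adjusted p = 0.0332) for Bhlhe41 in limma.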

How the data were processed

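The authors deposited 1 table of FPKM values for the 8 libraries, and per the submitters' processing notes STAR 2.4.1d, Partek and the mm10 build were used. No source used here gives the counting rule, annotation or strand setting. FPKM are not counts, so log2(FPKM + 1) was tested with limma 3.58.1 in R 4.3.3 (eBayes with a variance trend, two-sided) on 6917 genes whose mean FPKM reached 1. P-values were adjusted by Benjamini-Hochberg over all of them, with a threshold of 0.05. The additive model left 4 residual degrees of freedom and each model with 1 interaction term left 3. The script was tested on simulated data. The table held 27 lines with date-like names, none of them a gene described here. Near copies were sought by shared 31-base stretches in GENCODE M21 transcripts, and a core was sought in RefSeq promoter windows. The genes and lists were chosen with earlier results of these data known. Values in every library are given for described genes past the threshold in the media by siFN model. They are also given for the 4 genes with the widest range in each role group, and for Hk2 and Mxi1 outside this rule. Genes under the mean are named with their highest value, and further values are given for Slc2a3 and Hk1. Of the further lists each gene past the threshold is named, with values in every library for Slc16a1, Hmox1 and Plod2. Alternatives were a pseudocount of 0.1, no filter, a mean of at least 5, median-of-ratios scaling and each library left out.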

Additional observations from a re-analysis of the deposited data

Results flagged for a closer look

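For 3 of the 32 described genes (9.38%), beside 496 of the 6917 genes tested (7.17%), the effect of the medium differed between matrix made with and without siFN, by limma's test of the interaction term on the log2(FPKM + 1) scale with Benjamini-Hochberg adjustment. The term was -1.65 ± 0.35 for Eno2 (SE; adjusted p = 0.0446), -0.98 ± 0.18 for Ndrg1 (adjusted p = 0.0426) and -0.89 ± 0.17 for P4ha2 (adjusted p = 0.0422). In the further lists of glycolysis and hypoxia genes the same test gave -1.80 for Hmox1, -1.36 for Hilpda, -0.92 for Slc16a1, -0.71 for Adpgk and 1.44 for Plod2. A negative term means that TCM minus SFM was lower with siFN than without it, and among these 8 genes it was positive for Plod2 alone. Leaving out 1 library at a time, each of these calls was lost in at least 6 of the 8 fits.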

How the results depend on the processing

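No paired analysis was possible because each condition has 1 library and the labels carry no replicate numbers. The values of the genes past the threshold kept their sign under every alternative, and leaving out 1 library lost the call in 52 of 64 values for the media by siFN term, 52 of 72 for siFN on SFM matrix and 77 of 112 for TCM minus SFM with siFN. Leaving out each library in turn, the number of described genes past the threshold ranged from 0 to 7 for the media by siFN term (3 with all libraries), from 0 to 7 for siFN on SFM matrix (4) and from 0 to 9 for TCM minus SFM with siFN (7). The upper ends came from the fit without SFM siFN, in which 29.9%, 26.5% and 32.4% of all genes passed, above the 21.9%, 21.9% and 28.1% of the described genes. With no filter the count was 0 in all 3 comparisons, where 14, 10 and 14 of all 21556 genes passed. With a pseudocount of 0.1 the count was 0 for the media by siFN term, where 0 of all 6917 genes passed. With TCM siKLF4-siFN and TCM siFN, whose separate origin no label states, averaged to 1 library, an alternative chosen after seeing the data, it was 0 in all 3. The glycolytic median of the media by siFN term was -0.29 to 0.20 as each library was left out. Summing genes with their near copies, also chosen after seeing the data, gave 3, 3 and 7 genes. These were 9.38%, 9.38% and 21.9% of the 32, against 7.17%, 6.88% and 16.9% of all genes. Median-of-ratios scaling gave 3, 4 and 7 (9.38%, 12.5% and 21.9%), against 6.71%, 6.85% and 16.8% of all genes. For the media by siFN term, scaling brought Kdm3a in and took Eno2 out. A mean of at least 5 FPKM gave 2, 4 and 5 of 24 (8.33%, 16.7% and 20.8%), against 9.66%, 9.97% and 24.1%. The cause of these changes was not tested. Depth limits low genes most, with a counting error of up to 15.97% among the described genes.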

Other observations

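Of the 7 genes under a mean of 1 FPKM, Slc2a3, the GLUT3 glucose transporter, had 0.371 FPKM on SFM matrix after siKLF4-siFN, 0.389 after siFN and 0.304 on TCM matrix after siNT, and between 0.160 and 0.202 FPKM in the other 5 libraries. Hk1, the hexokinase found in most tissues, had 1.13, 1.33 and 1.32 FPKM on TCM matrix after siKLF4-siFN, siFN and siKLF4, and 0.441 FPKM on SFM matrix after siFN, its lowest value. The means of these genes lay under the filter of the main test. At the approximate depth their counting error in a single library was up to 24.55% for Slc2a3 and up to 11.63% for Hk1. With no filter all 39 genes were tested and 0 passed in any comparison in limma, where at most 14 of 21556 genes did.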
